A study of Mus musculus with 5 samples.

Results

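The 42 genes described here encode chaperones of the cytosol and of mitochondria, with their cochaperones and the heat shock factors HSF1 and HSF2. They were chosen by name, as a list of gene symbols drawn up with earlier results of these data known, and all 42 were among the 14454 gene symbols of the deposited tables. RNA was sequenced in lines made from NIH/3T3 cells (immortalised fibroblasts of mouse embryos), and every line carried an integrated human histone H2A gene fused to EGFP. In 4 lines, numbered 3, 6, 15 and 18, the histone had the T120D substitution (threonine replaced by aspartate in the C-terminal tail), and in 1 line it was wild type (wt). All lines were kept in DMEM with 10% fetal calf serum and 10 µg/ml gentamicin. The promoter of the transgene is not given in the sources used here, nor is it stated whether a line is 1 clone, so the T120D lines may not be independent of each other.

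Chaperones bind unfolded or partly folded proteins, and many of them use ATP to let these proteins fold. In the cytosol the HSP70 proteins, driven by J-domain proteins and reset by nucleotide exchange factors, pass many clients to HSP90, which matures kinases and steroid receptors with a set of cochaperones. The ring-shaped chaperonin TRiC, also called CCT, folds actin and tubulin, which prefoldin delivers to it. Mitochondria have their own HSP70, HSP90 and HSP60 chaperones. When unfolded proteins accumulate, HSF1 binds heat shock elements, alternating GAA and TTC triplets in the promoters of inducible chaperone genes.

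Cytosolic chaperone genes were more often higher than lower in the T120D lines. Of the 41 genes tested, 13 were higher and 1 was lower in T120D (limma, Benjamini-Hochberg adjusted p under 0.05 over all 10052 tested genes), which is 34.1% of the tested members, against 13.1% called over the whole table, 7.65% higher and 5.45% lower. The higher genes belonged to TRiC (Tcp1, Cct6a, Cct7 and Cct8), the HSP90 system (Hsp90aa1, Stip1, Ahsa1 and Fkbp4), the HSP70 system (Hspa8, Hsph1, Dnajb1 and Bag2) and the small heat shock proteins (Cryab). The lower gene was Hspa9, which encodes the mitochondrial HSP70. The differences were moderate: the ratio of the T120D mean to wt ran from 1.25 for Hspa8 to 1.97 for Hsph1 among the higher genes, and Hspa9 was 1.37-fold lower. At an unadjusted p under 0.05, 15 members were higher and 2 were lower, which adds Cdc37, Hspd1 and Hspa1b. Hspb1 did not pass the filter on low values, which kept genes averaging 1 RPKM or more (RPKM is a read number scaled to transcript length and to the reads mapped in the library).

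Each call set the 1 wt line against the spread of the 4 T120D lines, on the assumption that wt lines vary as much. All 14 differences kept their sign under 12 other settings of the analysis. For most settings this was fixed beforehand, because every T120D line lay on one side of wt for each gene. The calls were not all kept: Hsp90aa1 and Stip1 were called under all 12, and 8 of the 14 genes under at least 10. By limma without an intensity trend 3 of the 41 members were higher (Hsp90aa1, Stip1 and Hsph1) and 0 were lower. Over the whole table this setting called 455 of 10052 genes higher and 361 lower. The share of members called then did not exceed the share of all tested genes. Without the filter on low values 6 members were higher (434 genes over the whole table). Without T120D line 3 there were 8 (560 genes). The RPKM tables hold no read counts, and the spacing of low values put the depth at about 2525000 to 2705000 reads in the T120D lines and 2720000 in wt. A transcript of 2000 bases then had 5.05 to 5.44 reads for each RPKM. All 10 fibroblast markers had values and summed to 2317 to 2682 RPKM in the T120D lines and 3075 RPKM in wt. Of these, 7 were lower in T120D and 1 was higher by limma: Pdgfra was at 12.5, 15.1, 11.6 and 11.5 RPKM in T120D and 43.5 RPKM in wt, and Thy1 at 61.5, 48.9, 48.5 and 61.04 RPKM in T120D and 20.3 RPKM in wt. The part of such a difference in cell state in the chaperone results was not tested. Of 18 symbols listed as epithelial, endothelial, macrophage or skeletal muscle markers, 8 had values, and none of these exceeded 1.455 RPKM in any line.

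**Figure D1:**
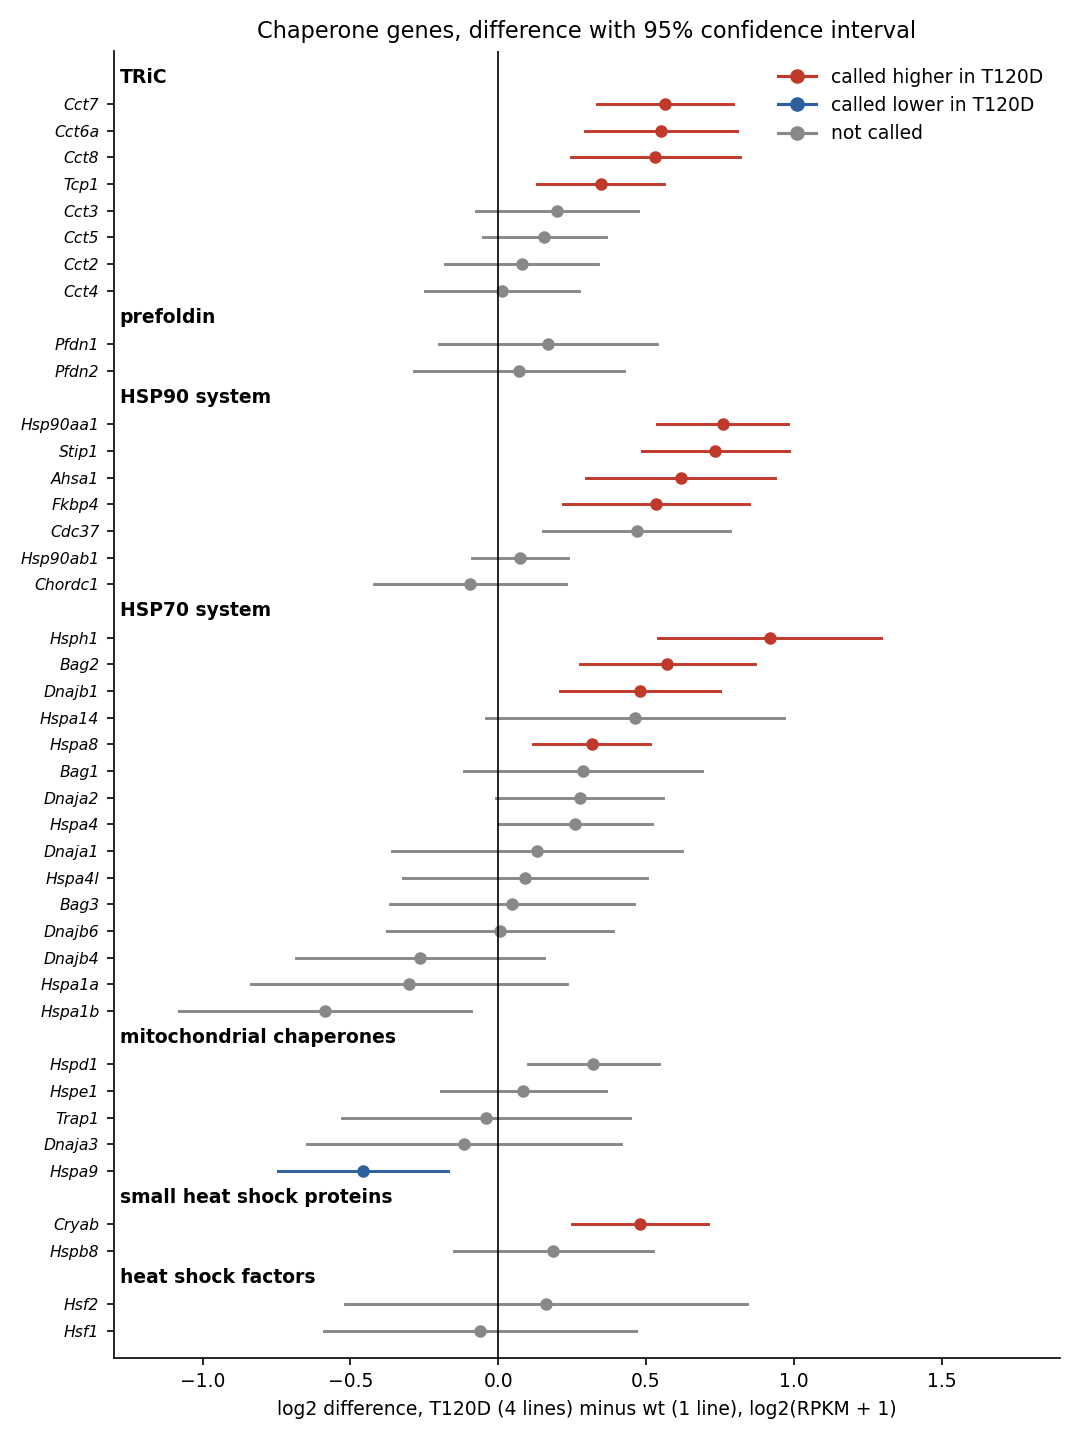
The log2 difference of T120D (4 lines) minus wt (1 line) on the log2(RPKM + 1) scale is plotted for the 41 tested chaperone genes by system, with the 95% confidence interval from limma as a bar. Red marks the 13 genes called higher in T120D, blue marks Hspa9, called lower, and grey marks the 27 genes not called.

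As a group these genes were abundant. A mean of at least 10 RPKM was reached by 35 of the 41 tested members (85.4%), against 35.6% of all tested genes. Abundant genes were also called more often: 22.2% of the tested genes at that level were called and 14.8% were called higher, against 14 (40.0%) and 13 of the 35 members. None of the 6 members below that level was called. The median log2 difference was 0.19 over the tested members, 0.08 over all tested genes of at least 10 RPKM and -0.02 over all tested genes. All 4 T120D lines lay above the wt line for 23 members and below it for 4, and the same held for 31.1% and 32.3% of all tested genes. The median SD between T120D lines on the log2 scale was 0.11 for members of at least 10 RPKM and 0.12 for all tested genes of that level.

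**Figure D2:**
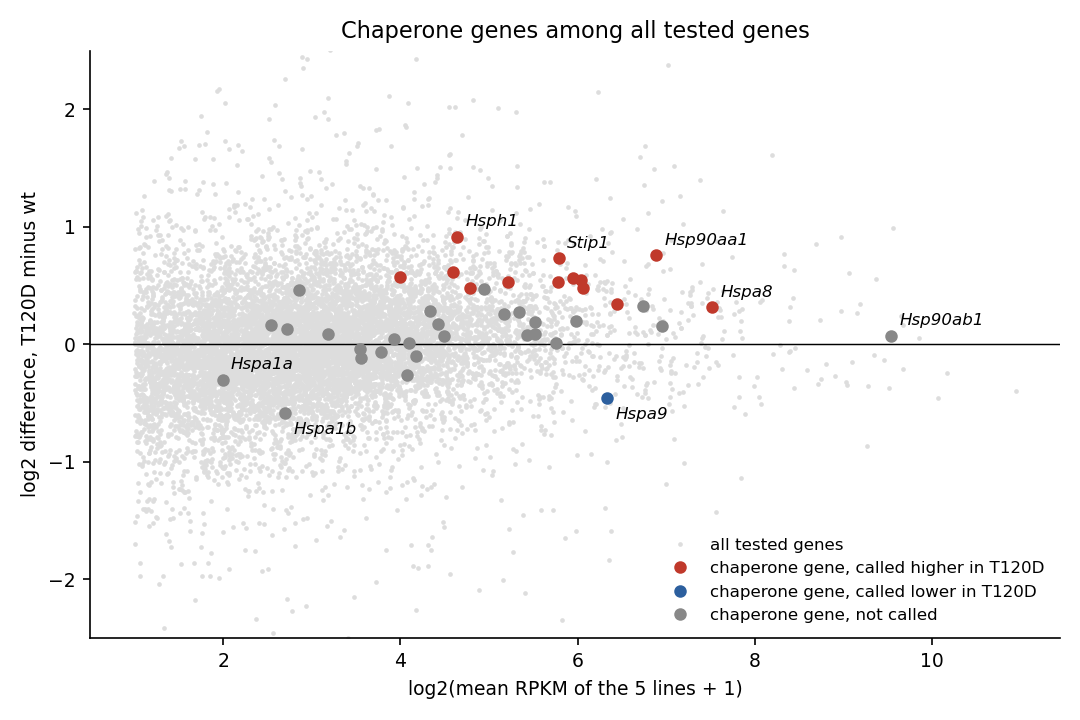
The log2 difference, T120D minus wt, is plotted against log2 of the mean RPKM of the 5 lines plus 1, with all tested genes in light grey and chaperone genes as larger points (34 tested genes lie beyond 2.5 on the vertical axis and are not drawn). Chaperone genes called higher sit at a mean above 10 RPKM, while Hspa1a and Hspa1b lie at low levels and below 0.

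Promoter sequence was examined because heat shock elements are the known binding sites of HSF1. RefSeq promoter windows of GRCm38.p6, from 250 bases before to 50 after a start site, were found for 34 of the 42 genes; Hspa8, Hsp90aa1, Hsp90ab1, Cct4, Pfdn1, Cryab, Hsf1 and Hspa9 had no entry. The motif of 2 units was searched as GAANNTTC or TTCNNGAA, and the motif of 3 units as the same triplets alternating with 2 bases between. Each form of 2 units is its own reverse complement and the forms of 3 units are each other's, so both strands were covered, and a motif of 3 units always contains one of 2. The motif of 3 units was present for 5 of the 34 genes (14.7%), against 0.662% of all 27025 genes with a window. These 5 genes were Hsph1, which was higher in T120D, and Chordc1, Dnajb6, Hspd1 and Hspe1, which were not called. The windows of Hspd1 and Hspe1 overlap and hold the same site, which was thus counted for both genes. The motif of 2 units was present for 17 of the 34, against 17.0% of all genes: for 3 of the 10 called members with a window and for 14 of the 24 others. The 14 include Hspd1 and Hspe1, and also Hspa1a and Hspa1b, whose windows are nearly identical. The matches within each of these pairs are not independent. A match is a run of letters and not a measured binding site, and binding of HSF1 was not measured here. The sites of 3 or more units around the start sites of Hsph1 (chr5:149636287-149636306, minus strand) and Chordc1 (chr9:18292262-18292286, plus strand) are printed to set a called gene beside one that was not called, with the triplets in capitals, 5′ to 3′:
Hsph1: tgcagaTTCtgGAAagTTCt
Chordc1: gGAAcgTTCggGAAaaTTCctGAAg
Within the windows, the site of Chordc1 had 5 alternating units and that of Hsph1 had 3. The Hsph1 stretch stops where its window ends, 50 bases after the start site. Further units beyond that edge would not have been seen, so its 3 units are a minimum.

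TRiC is built from 8 different subunits, and 4 of the 8 genes were higher in T120D while 4 were not called. The share called higher was 7.65% of all tested genes and 14.8% of those averaging 10 RPKM or more, a level that all 8 reached. Cct7 (eta subunit) was at 65.5, 64.2, 62.2 and 67.8 RPKM in T120D lines 3, 6, 15 and 18, against 43.5 RPKM in wt. All 4 T120D lines lay well above the wt line, a 1.49-fold ratio of the mean of 64.9 ± 2.35 RPKM (SD, n = 4) to wt (log2 difference 0.57, SE 0.10, limma adjusted p = 0.0084). Cct6a (zeta subunit) was at 65.8, 69.1, 75.6 and 65.2 RPKM in the T120D lines against 46.6 RPKM in wt, 1.48-fold higher in T120D (log2 difference 0.55, SE 0.11, limma adjusted p = 0.0148). Cct8 (theta subunit) was at 39.03, 39.7, 41.3 and 34.6 RPKM in the T120D lines, against 26.4 RPKM in wt. Its lowest T120D line, line 18, still exceeded wt, and the log2 difference was 0.53 (SE 0.13, limma adjusted p = 0.0263). The call of Cct8 ended without line 3 or without line 15 (limma adjusted p from 0.0203 to 0.0892 over 12 settings). Tcp1 (alpha subunit) was at 86.7, 94.0, 90.0 and 90.0 RPKM in the T120D lines and 70.6 RPKM in wt, a smaller log2 difference of 0.35 (standard error 0.09; limma adjusted p = 0.0437). The call of Tcp1 ended on leaving out any 1 of the T120D lines and was kept under 4 of 12 other settings, with limma adjusted p from 0.0351 to 0.176. Without T120D line 3 or without line 15, 2 TRiC genes were called higher, and by limma without a trend 0 were (4 at an unadjusted p under 0.05 in the fit with the trend).

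The other subunit genes differed less from wt. Cct5 (epsilon), the most abundant subunit mRNA in every line, averaged 126 ± 4.76 RPKM over the T120D lines (SD, n = 4), against 113 RPKM in wt, with a log2 difference of 0.16 (95% confidence interval -0.05 to 0.36). Cct3 (gamma) was at 58.8 to 68.9 RPKM in T120D and 55.5 RPKM in wt, Cct2 (beta) at 40.1 to 45.3 RPKM in T120D and 40.0 RPKM in wt, and Cct4 (delta) at 49.4 to 56.4 RPKM in T120D and 52.4 RPKM in wt. Cct3, Cct2 and Cct4 had log2 differences of 0.20, 0.08 and 0.01, with intervals of -0.07 to 0.47, -0.18 to 0.34 and -0.25 to 0.27. For Cct4, 2 T120D lines lay above the wt line and 2 below. Because the protein complex holds its subunits in equal number, their mRNA levels per length can be set side by side within a line. The most abundant subunit exceeded the least abundant one 3.10-fold, 3.12-fold, 3.22-fold and 3.64-fold in T120D lines 3, 6, 15 and 18, and 4.27-fold in wt. Cct5 and Tcp1 ranked first and second in all 5 lines, and Cct8 ranked last in all but T120D line 15, where Cct2 did. Cct7 had rank 5, 5, 4 and 3 in T120D lines 3, 6, 15 and 18, and rank 6 in wt. The ratio of Cct7 to Cct4 was 1.23 ± 0.0833 (SD, n = 4) in T120D and 0.830 in wt. Summed over the 8 genes, TRiC mRNA came to 548 ± 7.34 RPKM in the T120D lines (SD, n = 4), against 448 RPKM in wt. Neither of the prefoldin subunit genes, Pfdn1 and Pfdn2, was called by limma: Pfdn1 was at 17.4 to 23.3 RPKM in T120D and 18.4 RPKM in wt, and Pfdn2 at 19.3 to 25.0 RPKM in T120D and 20.6 RPKM in wt, so the T120D lines lay on both sides of wt, and neither had an unadjusted p under 0.05.

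**Figure D3:**
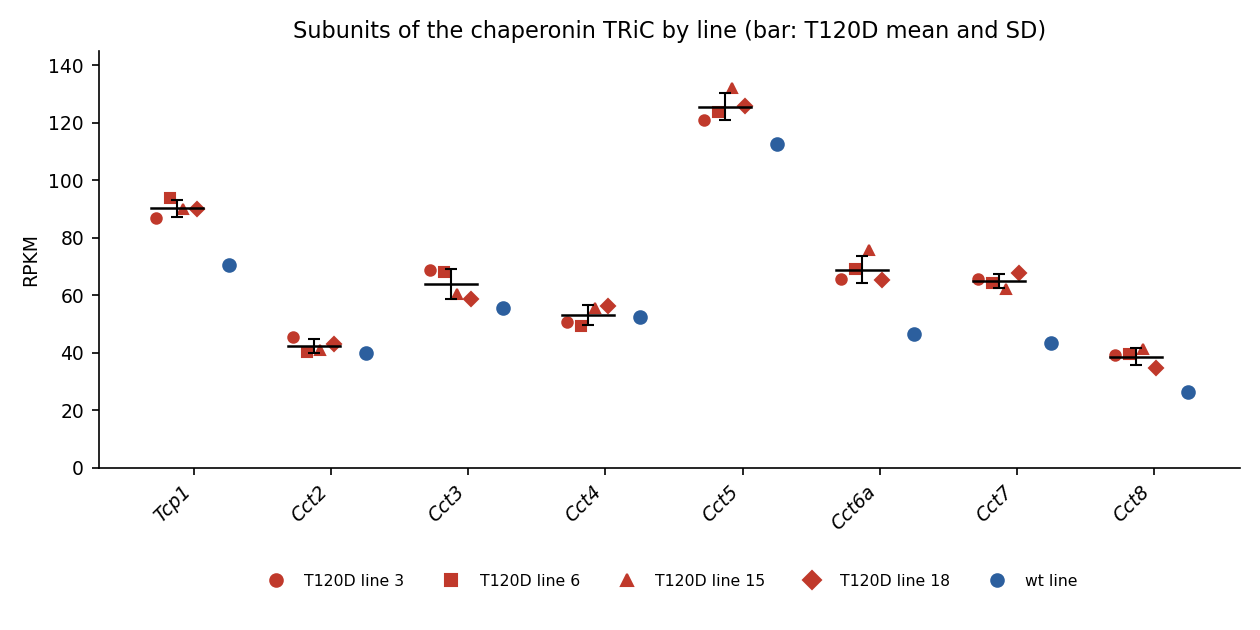
RPKM of the 8 TRiC subunit genes is plotted by line on a linear axis, with the T120D lines as red symbols (black bar, mean and SD over 4 lines) and the wt line as a blue point to their right. Cct6a, Cct7, Cct8 and Tcp1 are separated from wt, while the T120D values of Cct4 lie on both sides of it.

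In the HSP90 system, 4 of 7 genes were higher in T120D, with a median log2 difference of 0.53 over the 7. Over all tested genes 7.65% were called higher, and 14.8% of those averaging 10 RPKM or more, a level that all 7 reached. Hsp90aa1, which encodes the stress-responsive alpha form of cytosolic HSP90, was at 133, 118, 129 and 129 RPKM in T120D lines 3, 6, 15 and 18, against 74.8 RPKM in wt. Every T120D line was well above wt, and the mean of 127 ± 6.52 RPKM (SD, n = 4) was 1.70-fold the wt value (log2 difference 0.76, SE 0.10, limma adjusted p = 0.00169). Hsp90ab1, the constitutive beta form and the most abundant of the 42 mRNAs, was at 726, 774, 748 and 738 RPKM in the T120D lines and 709 RPKM in wt. Its log2 difference was 0.07 (95% confidence interval -0.09 to 0.24, limma adjusted p = 0.541). The ratio of Hsp90aa1 to Hsp90ab1 was 0.184, 0.153, 0.172 and 0.175 in the T120D lines, against 0.105 in wt, a log2 difference of 0.69 with no overlap. An exact permutation of 1 line against 4 cannot give a p below 0.2, which is the two-sided value for this and for each of the 7 ratios between members that were computed. The pairs were picked with the values known and are descriptions.

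Of the 5 HSP90 cochaperone genes among the members, 3 were higher (Stip1, Ahsa1 and Fkbp4) and 2 were not called. Among all tested genes averaging 10 RPKM or more, 14.8% were called higher. Stip1 encodes HOP, which bridges HSP70 and HSP90, and was at 59.1, 54.5, 60.5 and 61.3 RPKM in the T120D lines, against 34.9 RPKM in wt. The 4 lines were close together and far from wt, at 1.69 times its value (log2 difference 0.74, SE 0.11, limma adjusted p = 0.00352). With 1 annotated transcript in GENCODE, Stip1 had an estimated 311 to 340 reads in the T120D lines and 200.3 in wt. Ahsa1, the activator of the HSP90 ATPase, was at 27.0, 24.3, 26.2 and 22.1 RPKM in the T120D lines and 15.8 RPKM in wt (log2 difference 0.62, SE 0.14, limma adjusted p = 0.0226). Fkbp4, an immunophilin of steroid receptor complexes, was at 55.5, 55.04, 66.6 and 52.02 RPKM in T120D and 39.1 RPKM in wt (log2 difference 0.53, SE 0.14, limma adjusted p = 0.0363). Line 15 was the highest of the 4, and without line 3 the call of Fkbp4 ended (limma adjusted p from 0.0285 to 0.119 over 12 settings). Cdc37, which brings protein kinases to HSP90, was at 34.1, 27.7, 31.4 and 33.5 RPKM in the T120D lines and 22.5 RPKM in wt. All 4 lines lay above wt, but the log2 difference of 0.47 (95% confidence interval 0.15 to 0.79) missed the threshold (limma adjusted p = 0.0596). Chordc1, an HSP90-binding protein whose promoter holds the site of 5 units printed above, was at 15.4 to 18.4 RPKM in T120D and 18.0 RPKM in wt (log2 difference -0.10, 95% confidence interval -0.42 to 0.23).

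**Figure D4:**
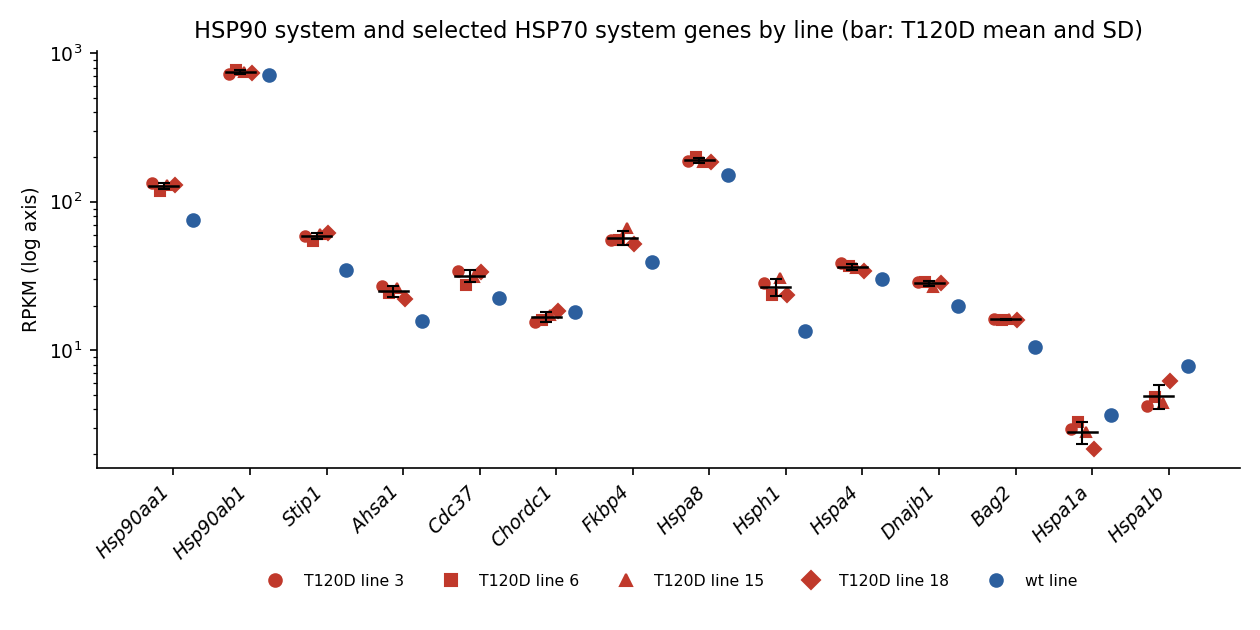
RPKM by line is plotted on a log axis for the 7 genes of the HSP90 system and 7 of the HSP70 system, with the T120D lines as red symbols (black bar, mean and SD over 4 lines) and wt as a blue point to their right. Hsp90aa1, Stip1 and Hsph1 are clearly above wt, Hsp90ab1 is near it, and Hspa1a and Hspa1b are the only pair plotted with all T120D lines below wt.

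The HSP70 system had 4 of 15 genes higher and 0 lower by limma (4 and 1 at an unadjusted p under 0.05), with a median log2 difference of 0.26. The 4 calls are 26.7% of the 15, against 13.1% over all tested genes, and 4 of the 10 that averaged 10 RPKM or more, against 22.2% at that level. The count was 2 without line 3 or without line 18, and 1 with lines 3, 15 and 18 as 1 sample or by limma without a trend. Hsph1, encoding the HSP110 protein HSP105, a nucleotide exchange factor that also keeps aggregated proteins soluble, had the highest difference of all 41 tested members. It was at 28.5, 23.6, 30.6 and 23.6 RPKM in T120D lines 3, 6, 15 and 18, against 13.5 RPKM in wt. The lines fell into higher values in lines 3 and 15 and lower values in lines 6 and 18, all of them above wt (log2 difference 0.92, SE 0.17, limma adjusted p = 0.00906). The related exchange factors were not called: Hspa4 was at 34.4 to 38.4 RPKM in T120D and 30.1 RPKM in wt (log2 difference 0.26, 95% confidence interval -0.001 to 0.52), and Hspa4l at 6.83 to 8.76 RPKM in T120D and 7.63 RPKM in wt (0.09, limma adjusted p = 0.79). The ratio of Hsph1 to Hspa4 was 0.732 ± 0.0946 (SD, n = 4) in T120D and 0.448 in wt.

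Hspa8, the constitutive HSP70 known as HSC70, was the most abundant member of this system. It was at 189, 201, 185 and 185 RPKM in the T120D lines and 152 RPKM in wt, 1.25-fold higher in T120D (log2 difference 0.32, SE 0.09, limma adjusted p = 0.0464). This call was kept under 5 of 12 other settings (limma adjusted p from 0.0358 to 0.217), and it ended without line 3, without line 15 or without line 18. The stress-inducible HSP70 genes Hspa1a and Hspa1b did not share this direction. Hspa1a was at 2.97, 3.30, 2.82 and 2.17 RPKM in the T120D lines and 3.67 RPKM in wt, and Hspa1b at 4.22, 4.86, 4.41 and 6.21 RPKM in T120D and 7.83 RPKM in wt. For both genes every T120D line lay below wt, with log2 differences of -0.30 (95% confidence interval -0.84 to 0.23) and -0.59 (-1.08 to -0.09), and neither passed the threshold (limma adjusted p of 0.446 and 0.113). The estimated reads were few, 16.9 to 26.5 in the T120D lines and 29.6 in wt for Hspa1a, and 29.9 to 45.8 in the T120D lines and 59.7 in wt for Hspa1b.

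Reads of Hspa1a and Hspa1b can be split between these near-identical neighbours on chromosome 17, so single values are uncertain and their sum is safer. The sum was 7.19, 8.16, 7.23 and 8.38 RPKM in the T120D lines, against 11.5 RPKM in wt. The likeness extends into the promoters, where 296 of 300 positions of the RefSeq windows (98.7%) were identical. The stretches around the heat shock element, with the triplets in capitals, lie at chr17:34972203-34972290 for Hspa1a and chr17:34959285-34959372 for Hspa1b (GRCm38.p6, both minus strand) and are the same in every base:
Hspa1a: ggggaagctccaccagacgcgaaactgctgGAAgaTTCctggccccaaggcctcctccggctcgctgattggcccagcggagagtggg
Hspa1b: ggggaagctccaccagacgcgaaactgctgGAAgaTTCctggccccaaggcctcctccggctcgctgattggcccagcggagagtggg
The ratio of Hspa8 to the sum of both was 24.6 ± 1.87 (SD, n = 4) in T120D and 13.2 in wt.

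Among J-domain proteins, which stimulate the ATPase of HSP70, Dnajb1, the HSP40 partner induced by heat shock, was higher. It was at 29.0, 28.9, 26.5 and 28.3 RPKM in the T120D lines and 19.9 RPKM in wt, a tight group above wt (log2 difference 0.48, SE 0.12, limma adjusted p = 0.0304). The call of Dnajb1 ended without line 3 and without line 18 (limma adjusted p from 0.0235 to 0.0893 over 12 settings). Dnaja2 was at 37.8 to 44.8 RPKM in T120D and 33.5 RPKM in wt (log2 difference 0.28, limma adjusted p = 0.183). Dnaja1 was at 4.42 to 6.45 RPKM in T120D and 5.08 RPKM in wt, and Dnajb6 at 13.8 to 18.7 RPKM in T120D and 16.0 RPKM in wt. Dnaja1, Dnajb4 and Dnajb6 had log2 differences of 0.13, -0.27 and 0.01, all with intervals that include 0. Dnajb4 was at 12.3 to 17.6 RPKM in T120D and 18.3 RPKM in wt, with all 4 lines below wt. Hspa14, a ribosome-associated HSP70, was at 5.30 to 8.18 RPKM in T120D and 4.50 RPKM in wt (log2 difference 0.46, limma adjusted p = 0.211).

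The BAG proteins are nucleotide exchange factors of HSP70, and 1 of the 3 genes was called. Among all tested genes averaging 10 RPKM or more, 22.2% were called. Bag2, whose product also inhibits the ubiquitin ligase CHIP, was at 16.1, 16.1, 16.4 and 15.9 RPKM in the T120D lines, against 10.5 RPKM in wt. It had the smallest spread between T120D lines of these genes in RPKM (SD 0.188), and the log2 difference was 0.57 (SE 0.13, limma adjusted p = 0.0225). The call of Bag2 ended with lines 3, 15 and 18 counted as 1 sample and by limma without a trend (adjusted p from 0.0162 to 0.054 over 12 settings). Bag1 was at 16.1 to 22.8 RPKM in T120D and 16.0 RPKM in wt (log2 difference 0.29, limma adjusted p = 0.331). Bag3, which acts with HSPB8 in the disposal of aggregates and is induced by HSF1, was at 11.7 to 16.2 RPKM in T120D and 13.7 RPKM in wt (log2 difference 0.05, limma adjusted p = 0.894).

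The mitochondrial chaperone genes had no shared direction: 1 of 5 was lower in T120D and 0 were higher by limma (1 each at an unadjusted p under 0.05). Over all tested genes 13.1% were called in either direction, and 22.2% of those averaging 10 RPKM or more. A count of 1 in 5 is near these shares. Hspa9, encoding mortalin, the mitochondrial HSP70 that pulls proteins through the import channel, was at 67.3, 79.4, 68.8 and 81.1 RPKM in T120D lines 3, 6, 15 and 18, against 102 RPKM in wt. All 4 lines lay below wt, with lines 6 and 18 nearest to it, and the log2 difference was -0.46 (SE 0.13, limma adjusted p = 0.046). The call was kept under 6 of 12 other settings (limma adjusted p from 0.0357 to 0.145) and ended without line 3 and without line 15. Hspd1, encoding HSP60, was at 107, 118, 106 and 110.4 RPKM in the T120D lines and 88.1 RPKM in wt. Its T120D lines were all above wt, but the log2 difference of 0.32 (95% confidence interval 0.10 to 0.54) missed the threshold (limma adjusted p = 0.0644). The ratio of Hspa9 to Hspd1 was 0.629, 0.670, 0.649 and 0.735 in the T120D lines, against 1.16 in wt. In the wt line Hspa9 was thus the more abundant of the pair per length, and in all 4 T120D lines Hspd1 was.

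Hspe1, encoding HSP10, the lid of the HSP60 chamber, was at 40.6 to 48.6 RPKM in T120D and 42.5 RPKM in wt (log2 difference 0.09, 95% confidence interval -0.19 to 0.36). Hspd1 and Hspe1 lie head to head on chromosome 1, with 215 bases between the RefSeq start sites of the windows used, and share 285 bases of those windows. The stretch chr1:55088029-55088106 (GRCm38.p6) is printed on both strands, since the same 4 triplets, in capitals, face both genes:
Hspd1: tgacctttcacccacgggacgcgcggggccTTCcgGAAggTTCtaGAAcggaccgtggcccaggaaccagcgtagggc
Hspe1: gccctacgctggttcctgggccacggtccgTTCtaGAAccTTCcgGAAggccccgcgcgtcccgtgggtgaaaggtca
The ratio of Hspd1 to Hspe1 mRNA was 2.31, 2.44, 2.61 and 2.43 in the T120D lines, against 2.07 in wt. Trap1, the mitochondrial HSP90, and Dnaja3, a mitochondrial J-domain protein, were at 8.04 to 12.4 and 8.72 to 14.2 RPKM in T120D, against 10.9 and 11.4 RPKM in wt. Both had T120D lines above and below wt, with log2 differences of -0.04 and -0.12.

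Small heat shock proteins hold unfolded proteins without using ATP. Cryab, encoding alphaB-crystallin, was at 70.4, 66.1, 70.7 and 72.7 RPKM in the T120D lines, against 49.8 RPKM in wt. The lines formed a narrow group above wt, with a log2 difference of 0.48 (standard error 0.10; limma adjusted p = 0.0165). The call of Cryab ended with lines 3, 15 and 18 counted as 1 sample and by limma without a trend (adjusted p from 0.0126 to 0.0893 over 12 settings). Hspb8 was at 46.0, 38.7, 51.0 and 48.2 RPKM in T120D and 40.1 RPKM in wt, so line 6 lay below wt and the others above (log2 difference 0.19, limma adjusted p = 0.451). Hspb1 was listed at 0 in T120D lines 3, 6 and 15 and in wt, and at 0.420 RPKM in line 18. Some ribosomal protein genes are also listed at 0 in a line, so a listing at 0 in these tables does not show that a transcript was absent.

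Genes of the heat shock factors were not called by limma, and neither had an unadjusted p under 0.05. Hsf1 was at 13.9, 15.4, 12.3 and 9.22 RPKM in the T120D lines and 13.1 RPKM in wt, and Hsf2 at 4.22, 3.24, 6.30 and 6.08 RPKM in T120D and 4.19 RPKM in wt. The T120D lines lay on both sides of wt for both genes, with log2 differences of -0.06 (95% confidence interval -0.59 to 0.47) and 0.16 (-0.52 to 0.84). Factor mRNA levels do not measure factor activity.

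Further genes of the same machinery were taken from a list of prefoldin subunits, cochaperones, J-domain proteins, mitochondrial chaperones and proteases, small heat shock proteins and tubulin cofactors. Of 65 tested, 2 were higher and 1 was lower (limma adjusted p under 0.05), a share of 4.62%, against 13.1% called over all genes. At a mean of 10 RPKM or more the share was 3 of 27 (11.1%), against 22.2% of all tested genes at that level, and the difference from the members was not tested. Fkbp5, an immunophilin that competes with FKBP4 on HSP90, was at 16.8, 18.4, 13.6 and 15.3 RPKM in the T120D lines and 9.06 RPKM in wt (log2 difference 0.75, limma adjusted p = 0.0231). Nudc, an HSP90 cochaperone that acts on the microtubule motor dynein, was at 17.3, 16.7, 19.2 and 21.4 RPKM in T120D and 11.7 RPKM in wt (log2 difference 0.62, limma adjusted p = 0.0343). Lonp1, a protease of the mitochondrial matrix, was at 17.7, 16.2, 16.5 and 18.3 RPKM in T120D and 28.4 RPKM in wt, lower in all 4 lines (log2 difference -0.70, limma adjusted p = 0.0107). The calls of Fkbp5 and Nudc ended without line 3, and that of Nudc also without line 15 or line 18 (limma adjusted p from 0.017 to 0.0843 and from 0.0256 to 0.0952 over 12 settings).

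Client proteins of TRiC were looked at beside its subunits. Of 15 tested genes for actins, actin-related proteins, tubulins and the mitotic TRiC clients CDC20 and FZR1, 8 were higher and 1 was lower in T120D, against 7.65% higher and 5.45% lower over all tested genes. Of the 15 genes, 13 averaged 10 RPKM or more, and all 9 called were among them, where 14.8% of all tested genes were called higher. The median log2 difference was 0.48. Tubb5, one of the genes called higher, lost its call without line 3 or line 15, among other settings (limma adjusted p from 0.00738 to 0.201 over 12 settings). Tuba1a, also called higher, was called under 9 of the 12 settings, and the remaining genes called higher under all 12. Tubb6, a beta-tubulin gene, was at 168, 140.4, 164 and 168 RPKM in the T120D lines, against 65.8 RPKM in wt (log2 difference 1.27, limma adjusted p = 0.0003). The cytoplasmic actin genes Actb and Actg1 had log2 differences of 0.99 and 0.86. Tubb2a, another beta-tubulin gene, was at 25.0 to 30.6 RPKM in T120D and 38.6 RPKM in wt (log2 difference -0.49, limma adjusted p = 0.0443). Its call ended without line 3, without line 15 or without line 18 (limma adjusted p from 0.0215 to 0.113 over 12 settings). Tubulin and actin genes have close paralogs and pseudogenes, between which reads can be split.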

How the data were processed

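RNA of 5 NIH/3T3 lines was analysed from the RPKM tables that the authors deposited, 1 per line. RPKM is scaled to transcript length and mapped reads. The submitters' processing notes name Partek and the genome build mm9; the sources used here give no aligner, annotation or strand setting, so overlapping genes and paralogs are uncertain. Genes averaging 1 RPKM or more were tested as log2(RPKM + 1), T120D minus wt, with limma 3.58.1 in R 4.3.3 (empirical Bayes, intensity trend, two-sided, 3 residual and 5.99 prior degrees of freedom) and Benjamini-Hochberg adjustment over all tested genes. The wt group has 1 line, so p-values rest on the spread between T120D lines, which may be technical. Differences on this scale understate changes of low genes. Depth was estimated from the spacing of low values of genes with 1 GENCODE M21 transcript: 48.1% to 53.1% of those used came within 0.05 of a whole read, too few to recover reads for a count test. Promoter windows came from RefSeq (GRCm38.p6), a build other than that of the tables. The fit and the depth estimate were checked on simulated data. Other pseudocounts, filters, scalings and left-out lines were tried. Every member is accounted for. Of other chaperone and client genes, values are given for at most 3 called per list and direction, and Tubb5 and Tuba1a are named besides for calls that were not kept. The members, the lists and the tests were chosen with earlier results of these data known.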

Additional observations from a re-analysis of the deposited data

Results flagged for a closer look

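Hspa4l, an HSP110-type exchange factor gene, had a T120D line far from the other 3: it was at 6.83 RPKM in line 18, against 8.61 to 8.76 RPKM in lines 3, 6 and 15. The gap in log2(RPKM + 1) exceeded Dixon's 95% critical value for 4 samples. It was the 1 gene of the 41 tested members to do so, and chance flags about 1 in 20 groups.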

How the results depend on the processing

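The signs of the 14 called differences held under all 12 other settings, while the count of calls moved. Only the quantile scaling could have changed these signs, because every T120D line lay on one side of wt for each gene. Median scaling moved all differences by the same small amount. It took that of Hspa8, the smallest of the 14 in size, from 0.32 to 0.34. The analysis as reported had 13 members higher and 1 lower, with 769 genes higher and 548 lower over the whole table. No filter on low values gave 6 and 0 members (434 genes higher and 514 lower over the whole table). Limma without a trend gave 3 and 0 (455 higher and 361 lower over the whole table). Counting lines 3, 15 and 18 as 1 sample gave 8 and 0 (603 higher and 461 lower over the whole table). Median scaling gave 14 and 0 (823 higher and 508 lower over the whole table). In each of these, 2 members were lower at an unadjusted p under 0.05. Leaving out 1 T120D line gave 8 to 13 members higher and 0 to 1 lower, and 560 to 796 genes higher and 395 to 586 lower over the whole table. Of the 27 members not called, Cdc37 was called higher under 3 settings (a mean of at least 5 RPKM, median scaling, and without line 6). Signs changed for 6 members not called, each with a log2 difference under 0.1 in size. The cause of these changes was not tested. Low members such as Hspa1a and Hsf2 rest on few reads, which limits their precision. No paired analysis was possible because the wt group has 1 line and the groups share no replicate numbers.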
